A study of Mus musculus with 6 samples.

Results

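The 10 genes described here make, break down or sense prostaglandins and leukotrienes. They were chosen by symbol along the path from the release of arachidonate to prostaglandin breakdown and the receptor. Earlier results of these data were known when the choice was made. All 10 were found among the 29957 genes of the deposited table. The treated cells were bone marrow-derived macrophages from wild-type mice, grown from marrow in culture, which received LPS+PA-BSA (3 libraries). They were set against bone marrow-derived macrophages of the same genotype labelled as control (3 libraries). LPS is lipopolysaccharide, the bacterial cell wall component sensed by TLR4, and served as the first signal for the Nlrp3 inflammasome, a complex that matures interleukin-1 beta. PA-BSA is a free fatty acid preparation, given in place of ATP to provide the other signal. The labels give no dose, no time and no animal age, and leave unsaid whether the controls had LPS or the carrier. Cells given only LPS were not analysed here, so what LPS and what PA-BSA did cannot be told apart. The labels do not tie the replicates to separate mice or cultures, and the p-values therefore cover a spread between samples that may be technical.

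Eicosanoids are signalling lipids cut from membrane phospholipids. A phospholipase A2 frees arachidonate, the cyclooxygenases turn it into prostaglandin H2, and terminal synthases make prostaglandin E2, prostaglandin D2 or thromboxane from that, while 5-lipoxygenase and its helper protein open the separate branch to the leukotrienes. Macrophages are a known source of both, and prostaglandin E2 acts back on them through its receptors until dehydrogenases inactivate it.

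Levels are FPKM, that is sequenced fragments relative to transcript length and library depth. Depth, read from the steps between low FPKM values, was about 14380000 to 18890000 fragments in LPS+PA-BSA and 13910000 to 21180000 in controls. Changes were tested with limma, a linear model, across the 11364 genes that reached 1 FPKM in 3 libraries, as differences of log2(FPKM + 1), a scale on which low genes appear to change less than they do. Macrophage markers were present in all libraries, with 6 markers (Adgre1, Csf1r, Cd68, Itgam, Fcgr1 and Mertk) summing to 2726 to 2772 FPKM in LPS+PA-BSA and 3083 to 3264 FPKM in controls. Of these 6 markers 4 were called lower and 1 higher, with log2 fold changes from -0.93 for Mertk to 2.2 for Fcgr1. Among all genes tested 32.9% were called lower and 22.2% higher. LPS+PA-BSA 1 and control 3 stood apart from the other libraries of their groups. The median log2 departure from the group mean, in the fifth of genes with the most GC-rich transcripts minus the fifth with the least, was -0.30 in LPS+PA-BSA 1 and -0.45 in control 3, against 0.11 to 0.26 in the other 4 libraries. Some calls were lost within LPS+PA-BSA 1, LPS+PA-BSA 2 and control 3 alone, a set of libraries known from earlier results of these data.

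After LPS+PA-BSA the macrophages held much more mRNA of 3 enzymes that lead to prostaglandin E2 and much less of an enzyme that inactivates it. Pla2g4a, Ptgs2 and Ptges, which stand in a row from arachidonate to prostaglandin E2, rose 3.93-fold, 87.7-fold and 9.78-fold in mean FPKM. Hpgd, which inactivates prostaglandins, was 49.5-fold lower, and Alox5, the enzyme of the leukotriene branch, was 15.2-fold lower. Ptgs1, Hpgds, Tbxas1, Alox5ap and Ptger4 fell by less, so that 3 of the 10 genes rose and 7 fell at a Benjamini-Hochberg adjusted p under 0.05 (limma). Over all genes tested, 55.1% were called, 22.2% as higher and 32.9% as lower (2523 and 3736 genes), so a call alone does not set a gene apart here. The median log2 fold change was -0.85 over the 10 genes and -0.11 over all genes tested. Setting equal medians in each library shifted the all-gene median by 0.17 and gave 3367 higher and 2656 lower, and quantile normalization shifted it by 0.13 and gave 3014 and 2922, while 3 and 7 of the 10 were called under both. In all 10 genes the groups did not overlap, which held for 63.2% of genes tested. Hpgd and Alox5 passed the filter on low values only through the controls.

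**Figure D1:**
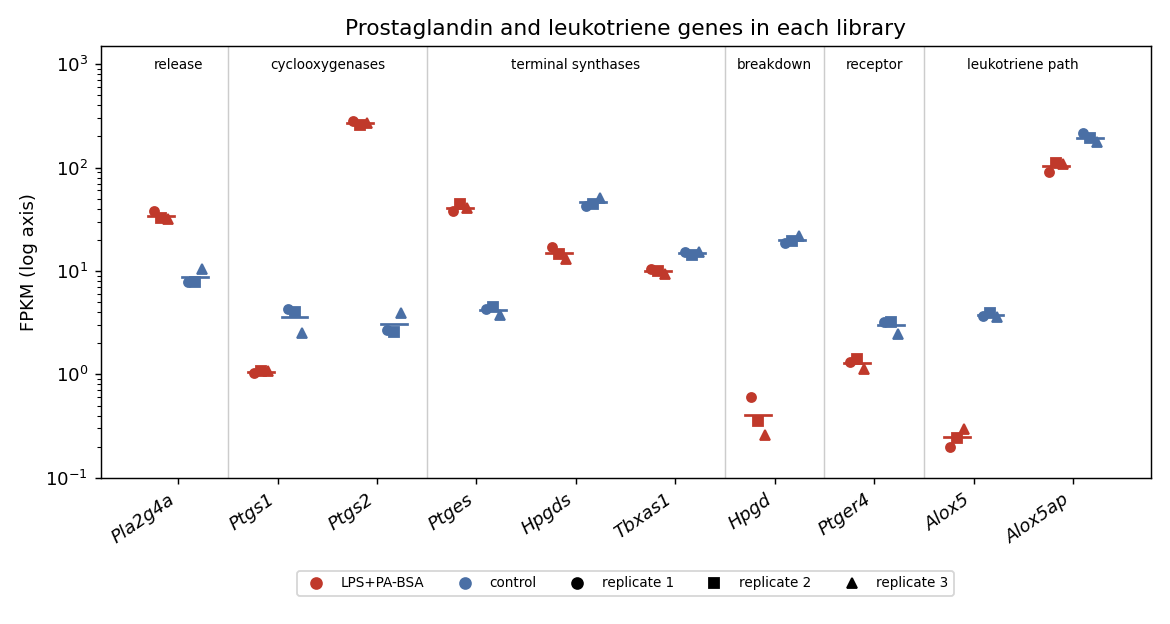
FPKM of the 10 genes in each library on a log axis, ordered by their place in the path, with LPS+PA-BSA in red to the left of control in blue, symbols for replicates and bars for group means. Pla2g4a, Ptgs2 and Ptges lie higher in LPS+PA-BSA and the other 7 genes lie lower, with no overlap between groups in any of them.

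The regions just upstream of the 3 genes that rose together and of Hpgd, the gene with the largest fall among the 10, are shown for comparison. Each run is the 250 bases before the RefSeq start of the gene (GRCm38.p6), read 5′ to 3′ on the strand of the gene. For Pla2g4a, which has another RefSeq start inside the gene, the window at the outer start is shown, and for Ptges the RefSeq start lies inside the longer GENCODE gene. Capitals mark a match to TTGCNNAA, the one of 7 motifs searched that occurs in these 4 windows.
Pla2g4a, chr1:149961291-149961540, minus strand: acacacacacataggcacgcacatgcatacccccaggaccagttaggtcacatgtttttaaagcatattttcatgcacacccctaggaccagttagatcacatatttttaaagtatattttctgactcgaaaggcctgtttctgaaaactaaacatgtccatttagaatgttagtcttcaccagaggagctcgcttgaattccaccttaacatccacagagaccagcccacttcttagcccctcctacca
Ptgs2, chr1:150099781-150100030, plus strand: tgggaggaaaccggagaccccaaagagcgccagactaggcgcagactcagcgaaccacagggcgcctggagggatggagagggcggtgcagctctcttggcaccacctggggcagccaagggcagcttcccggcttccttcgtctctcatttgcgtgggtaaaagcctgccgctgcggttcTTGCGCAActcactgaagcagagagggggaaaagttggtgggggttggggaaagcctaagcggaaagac
Ptges, chr2:30903298-30903547, minus strand: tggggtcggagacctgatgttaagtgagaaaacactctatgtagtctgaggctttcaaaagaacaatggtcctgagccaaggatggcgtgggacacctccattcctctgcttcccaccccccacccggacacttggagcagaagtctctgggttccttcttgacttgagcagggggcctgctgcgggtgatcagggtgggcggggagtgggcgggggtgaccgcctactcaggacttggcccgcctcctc
Hpgd, chr8:56294302-56294551, plus strand: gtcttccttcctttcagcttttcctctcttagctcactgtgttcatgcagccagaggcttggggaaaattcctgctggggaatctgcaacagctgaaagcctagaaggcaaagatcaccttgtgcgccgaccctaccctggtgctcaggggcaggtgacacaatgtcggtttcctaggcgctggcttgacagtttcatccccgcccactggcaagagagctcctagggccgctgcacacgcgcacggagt
The motifs were searched on both strands, and a match is a match of letters, not a bound site. TTGCNNAA, the core letters of C/EBP sites, occurred in the Ptgs2 window from 69 to 62 bases upstream of the start, where the matched letters read the same on both strands. It occurred in 9.56% of all 32851 upstream windows, and among the 10 genes also in the window of Hpgds, which fell, from 176 to 169 bases upstream. The letters TGACGTCA for CRE (1.55% of windows), CACGTG for E-box (6.02%), TGANTCA for AP-1 (6.75%) and TATAAA for the TATA box (12.4%) were not in these 4 windows, though TATAAA occurred in the window of the inner Pla2g4a start, and TATAAA and TGANTCA in that of Tbxas1. For Tbxas1, as for Ptges, the RefSeq start lies inside the longer GENCODE gene. The 4 windows also lacked GGG and TTCC set 3 free bases apart for NF-kB (4.65%), or GAAA and GAAA set 2 free bases apart for ISRE (2.98%). Bases further upstream, or past the RefSeq start, were not searched. The absences therefore hold for these 250-base windows only, not for the promoters as a whole. In GC content the 4 windows ran from 43.2% for Pla2g4a to 61.6% for Ptgs2, with Hpgd at 56.8% and Ptges at 59.6%.

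Pla2g4a encodes cytosolic phospholipase A2 alpha, which frees arachidonate from membrane phospholipids when calcium rises. It was at 37.8, 32.5 and 31.7 FPKM in LPS+PA-BSA 1 to 3, against 7.81, 7.74 and 10.4 FPKM in controls 1 to 3. Every LPS+PA-BSA library lay above every control by a wide margin, and control 3 was the highest of its group. The means were 34.0 ± 3.30 FPKM in LPS+PA-BSA and 8.64 ± 1.49 FPKM in controls (SD, n = 3 each), a log2 fold change of 1.87 (SE 0.131, limma adjusted p = 6.05e-05).

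Ptgs2 encodes cyclooxygenase-2, the inducible enzyme that makes prostaglandin H2. It was at 280, 258 and 269 FPKM in LPS+PA-BSA 1 to 3, against 2.68, 2.59 and 3.92 FPKM in controls. Its log2 fold change of 6.07 (SE 0.133, 95% interval 5.75 to 6.39, limma adjusted p = 1.02e-06) placed it 5 of 11364 from the largest rise. The treated libraries differed from each other by little, so the spread of the group was small beside the change. About 16523 to 23551 fragments stood behind it in LPS+PA-BSA and 184 to 253 in controls. In mm10 it lies on chromosome 1 at 150100031 to 150108227 on the plus strand, and Pla2g4a lies on the same chromosome at 149829618 to 149961290 on the minus strand. The starts of these neighbours, which point away from each other, are 138.741 kb apart with 3 annotated genes and no protein-coding gene between them (GENCODE M21). One of those 3, the noncoding RNA gene Ptgs2os, named after its values were seen, lies on the opposite strand, with 67 bases between its start and that of Ptgs2. It was at 0.687, 0.563 and 0.786 FPKM in LPS+PA-BSA and 0, 0.0312 and 0.0393 FPKM in controls. It stayed below the filter on low values, and in the fit without a filter its log2 fold change was 0.71 (limma adjusted p = 0.00108). The libraries were made strand-specific, but how strand was used in counting is not stated, so reads of overlapping or adjoining genes on opposite strands may not be fully separated.

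Ptgs1 encodes cyclooxygenase-1, the form that many tissues make without a stimulus. It was at 1.02, 1.07 and 1.09 FPKM in LPS+PA-BSA 1 to 3, against 4.28, 3.99 and 2.5 FPKM in controls. The treated libraries lay within a narrow band, but with only about 55, 44 and 53 fragments behind them that closeness is no measure of precision. Control 3 was the lowest control yet still above all treated libraries. Means were 1.06 ± 0.033 and 3.59 ± 0.954 FPKM (SD, n = 3 each; LPS+PA-BSA and control), a log2 fold change of -1.13 (SE 0.161, limma adjusted p = 0.00139). Since FPKM is per length, the cyclooxygenases can be set side by side. Ptgs2 made up 99.6% of the summed FPKM of both in each LPS+PA-BSA library, and 38.5%, 39.4% and 61.1% in controls 1 to 3. The sum itself was 270 ± 11 FPKM in LPS+PA-BSA and 6.65 ± 0.279 FPKM in controls (SD, n = 3 each). Controls differed in which cyclooxygenase had the higher FPKM, with Ptgs2 ahead in control 3 and Ptgs1 ahead in controls 1 and 2, while their sums were close. That difference rests on control 3, the library with the strongest lean against GC-rich transcripts (-0.45, against 0.20 and 0.26 in controls 1 and 2). The transcript of Ptgs1 is 51.0% GC and that of Ptgs2 40.0%. The part of the lean in these shares was not tested.

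Markers of stromal cells, which also express Ptgs1, moved with the groups. Of 7 such markers 6 were tested, of which 5 fell (Col1a1, Col1a2, Col3a1, Pdgfra and Pdgfrb) and 1 rose (Dcn). Among all genes tested 32.9% were called lower and 22.2% higher. The summed level of the 7 markers was 35.6 to 44.0 FPKM in LPS+PA-BSA and 91.3 to 174 FPKM in controls. None of them was at 0 in all libraries. Col1a1, a collagen gene of that list, was at 3.97, 5.72 and 6.07 FPKM in LPS+PA-BSA and 64.8, 69.5 and 31.6 FPKM in controls. Control 3 was thus its lowest control, as for Ptgs1, and also that of Col1a2, Col3a1 and Pdgfrb. For Dcn, Pdgfra and Lum control 3 was instead the highest control. Dcn was at 4.68, 3.72 and 6.33 FPKM in controls 1 to 3. Pdgfra was at 1.78, 1.51 and 2.21 FPKM there, and Lum at 0.208, 0.551 and 0.732 FPKM. The part of such cells in the Ptgs1 result was not tested, and in bulk samples fewer cells of a type and less RNA per cell cannot be told apart. Control 3 also had the strongest GC lean of any library (-0.45), and the part of that lean in these values was not tested.

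Ptges encodes microsomal prostaglandin E synthase-1, the inducible enzyme that works with cyclooxygenase-2. It was at 37.7, 44.1 and 40.8 FPKM in LPS+PA-BSA, against 4.26, 4.52 and 3.75 FPKM in controls. All treated libraries lay far above all controls, and neither group held a library that stood apart. The log2 fold change was 3.01 (SE 0.0958, limma adjusted p = 3.20e-06), with means of 40.9 ± 3.19 and 4.18 ± 0.390 FPKM in LPS+PA-BSA and control (SD, n = 3 each). A pseudogene lies inside the Ptges locus on the same strand, Gm13400, at 0.681 to 2.26 FPKM in LPS+PA-BSA and 0.154 to 0.490 FPKM in controls.

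Of the other prostaglandin E synthases, Ptges3, the cytosolic form that is also a co-chaperone of Hsp90, was at 32.3 ± 1.31 FPKM in LPS+PA-BSA and 19.6 ± 1.31 FPKM in controls (SD, n = 3 each). Its rise of 0.69 on the log2 scale passed the test (limma adjusted p = 0.000522), with the call lost within LPS+PA-BSA 1, LPS+PA-BSA 2 and control 3 alone (0.61), and it was 0.28 once the trend on GC content and length was removed. Ptges2, another membrane form, stayed under the filter on low values at 0.552, 0.674 and 0.826 FPKM in LPS+PA-BSA and 1.39, 1.29 and 0.708 FPKM in controls, and its groups overlapped. In controls Ptges3 was thus the most abundant of the 3 mRNAs per length, and in LPS+PA-BSA Ptges stood above it in every library.

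**Figure D2:**
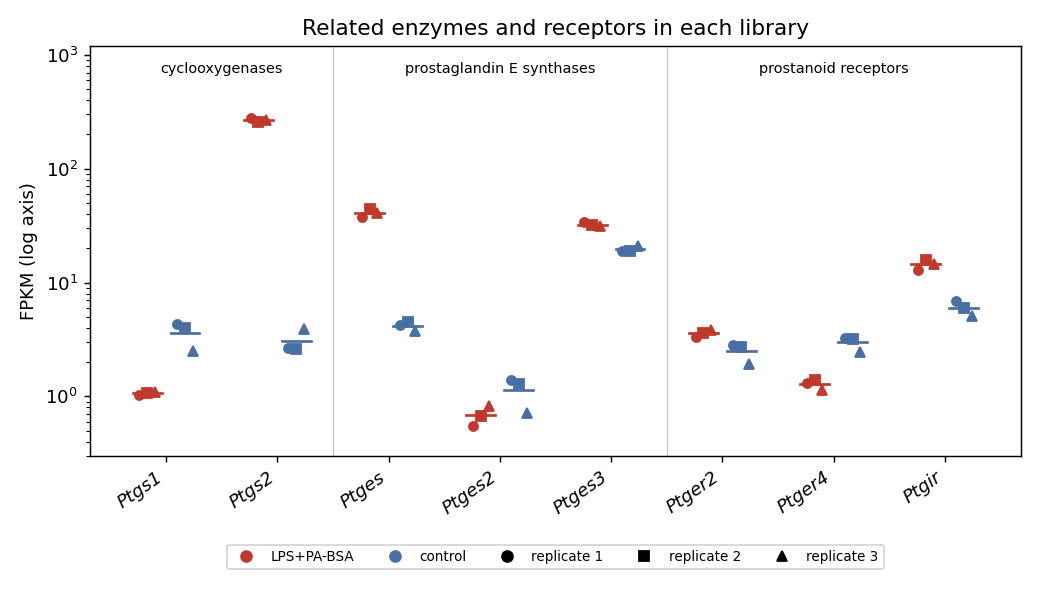
FPKM per library on a log axis for the cyclooxygenases, the prostaglandin E synthases and the prostanoid receptors that passed the filter on low values, with Ptges2 added, LPS+PA-BSA in red left of control in blue and bars for group means. Ptgs2 stands at 258 FPKM or more in LPS+PA-BSA and at 3.92 FPKM or less in controls, while Ptgs1, Ptges2 and Ptger4 have lower means in LPS+PA-BSA.

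Hpgds and Tbxas1, synthases of other prostanoids, fell. Hpgds, the hematopoietic prostaglandin D synthase, was at 17, 14.6 and 13.2 FPKM in LPS+PA-BSA, against 42.9, 44.0 and 51.1 FPKM in controls. Its lowest control was well above its highest treated library, at a log2 fold change of -1.56 (SE 0.116, limma adjusted p = 7.74e-05). A processed pseudogene within its span on the opposite strand, Gm17147, was listed at 3.05 to 3.62 FPKM in LPS+PA-BSA and 13.8 to 15.6 FPKM in controls, and reads of this overlap may not be fully separated from those of Hpgds. Mast cells, which make much Hpgds and Alox5, can occur in marrow cultures. Of 7 mast cell markers 6 were found in the table, and none passed the filter on low values. Their summed level was 0.540 to 0.752 FPKM in LPS+PA-BSA and 0.169 to 0.277 FPKM in controls, so these markers were near 0 in both groups. Hdc, at 0.232, 0.544 and 0.385 FPKM in LPS+PA-BSA and 0.0338, 0.0541 and 0.0186 FPKM in controls, made up much of the sum in LPS+PA-BSA, while Cpa3 was at 0.0695, 0.0071 and 0 FPKM in LPS+PA-BSA and 0.0554, 0.0689 and 0.101 FPKM in controls.

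Tbxas1, thromboxane A synthase, showed the smallest change of the 10. It was at 10.5, 9.91 and 9.34 FPKM in LPS+PA-BSA, against 15.4, 14.2 and 15.2 FPKM in controls. The groups did not overlap, but the log2 fold change was -0.55 (SE 0.0785, limma adjusted p = 0.00143). Within LPS+PA-BSA 1, LPS+PA-BSA 2 and control 3 alone the call was lost, with a log2 fold change of -0.53 (adjusted p = 0.0861). Platelets express this gene too, and the 5 platelet and megakaryocyte markers in the table summed to 2.43 to 8.04 FPKM in LPS+PA-BSA and 2.88 to 26.6 FPKM in controls, with none at 0 in all libraries. Most of that sum was Pf4, at 1.92, 3.32 and 7.32 FPKM in LPS+PA-BSA and 22.7, 24.7 and 2.03 FPKM in controls. The part of platelets in the Tbxas1 result was not tested. Tbxas1 overlaps the protein-coding gene Hipk2 on the opposite strand, which was at 12.4 to 16.0 FPKM in LPS+PA-BSA and 18.7 to 19.0 FPKM in controls.

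Hpgd encodes 15-hydroxyprostaglandin dehydrogenase, which takes the first step in inactivating prostaglandins. It was at 0.603, 0.352 and 0.260 FPKM in LPS+PA-BSA, against 18.6, 19.7 and 21.9 FPKM in controls. The controls varied little, and the treated values, which rest on about 19, 9 and 7 fragments, were all below 1 FPKM. The log2 fold change was -3.91 (SE 0.118, 95% interval -4.19 to -3.63, limma adjusted p = 2.64e-06), which was place 4 of 11364 from the largest fall, and -5.37 with a pseudocount of 0.1. In controls Hpgd mRNA was 3 of 10 in the order of levels, and in LPS+PA-BSA it was 9 of 10. In mm10 it lies on chromosome 8 at 56294585 to 56321043.

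Other genes of prostaglandin breakdown and transport went both ways. Of 5 genes listed for transport and breakdown 4 were tested, of which 2 rose and 1 fell. Their median log2 fold change was 0.30 beside -0.11 for all genes tested, of which 22.2% were called higher and 32.9% lower. Ptgr1, prostaglandin reductase 1, which also inactivates leukotriene B4, was at 76.9, 83.9 and 84.7 FPKM in LPS+PA-BSA, against 44.3, 37.8 and 39.6 FPKM in controls (log2 fold change 1.00, SE 0.0883, limma adjusted p = 0.000164). Abcc4, an exporter of prostaglandins, averaged 11.3 ± 0.480 FPKM in LPS+PA-BSA and 7.52 ± 0.658 FPKM in controls (SD, n = 3 each; log2 fold change 0.53). Its call was lost within LPS+PA-BSA 1, LPS+PA-BSA 2 and control 3 alone (0.42). Ptgr2, the one that fell, was at 6.53 and 9.81 FPKM on average in LPS+PA-BSA and control, and its call was lost with equal medians in each library (-0.34), while removing the GC and length trend gave -0.84. Zadh2, another reductase of this step, was at 11.6 ± 0.496 FPKM in LPS+PA-BSA and 11 ± 0.804 FPKM in controls (SD, n = 3 each; log2 fold change 0.08, 95% interval -0.12 to 0.28).

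Ptger4 encodes EP4, a receptor for prostaglandin E2 that raises cyclic AMP. It was at 1.32, 1.4 and 1.14 FPKM in LPS+PA-BSA, against 3.24, 3.21 and 2.47 FPKM in controls. The groups stood clear of each other, and LPS+PA-BSA 3 and control 3 were the lowest of their groups. The log2 fold change was -0.79 (SE 0.109, limma adjusted p = 0.00120), a call that was lost within LPS+PA-BSA 1, LPS+PA-BSA 2 and control 3 alone (-0.56, adjusted p = 0.0585). Ptger4 overlaps the protein-coding gene Ttc33 on the opposite strand, which was at 12.6 to 15.2 FPKM in LPS+PA-BSA and 12.6 to 15.5 FPKM in controls.

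Of 13 other eicosanoid receptors 11 were in the table and 3 were tested, of which 2 rose and 1 fell. Their median log2 fold change was 0.41, beside -0.11 for all genes tested, of which 22.2% were called higher and 32.9% lower. Ptger2, which encodes EP2, the other receptor that answers prostaglandin E2 with cyclic AMP, averaged 3.60 ± 0.240 FPKM in LPS+PA-BSA and 2.49 ± 0.488 FPKM in controls (SD, n = 3 each; log2 fold change 0.41, limma adjusted p = 0.0299). Its call was lost without LPS+PA-BSA 2 (0.40), LPS+PA-BSA 3 (0.37) or control 2 (0.45), with the GC and length trend removed (0.15), within LPS+PA-BSA 1, LPS+PA-BSA 2 and control 3 alone (0.61), and in 7 of 17 alternatives in all. Ptgir, the prostacyclin receptor, was at 12.8, 15.9 and 14.6 FPKM in LPS+PA-BSA, against 6.86, 5.95 and 5.09 FPKM in controls. It rose by 1.15 on the log2 scale (SE 0.126, limma adjusted p = 0.000424) and was the most abundant prostanoid receptor mRNA per length in both groups. Cysltr1, a receptor for cysteinyl leukotrienes, fell to 2.93 ± 0.330 FPKM in LPS+PA-BSA, against 4.82 ± 0.842 FPKM in controls (SD, n = 3 each; log2 fold change -0.56). With equal medians in each library its call was lost (-0.39), as after quantile normalization (-0.36).

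The leukotriene branch was lower at its first enzyme and at the helper of that enzyme. Alox5, 5-lipoxygenase, was at 0.199, 0.245 and 0.297 FPKM in LPS+PA-BSA, against 3.70, 3.94 and 3.61 FPKM in controls. The controls lay within a narrow band and all treated libraries lay far below them, with about 13 to 18 fragments each, against 180 to 281 in controls. The log2 fold change was -1.93 (SE 0.0775, limma adjusted p = 7.37e-06), and -3.48 with a pseudocount of 0.1. Alox5ap encodes FLAP, the membrane protein that presents arachidonate to 5-lipoxygenase. It was at 89.9, 111 and 109 FPKM in LPS+PA-BSA, against 215, 191 and 178 FPKM in controls. Every treated library lay below every control. It was the most abundant of the 10 mRNAs per length in controls and stood next after Ptgs2 in LPS+PA-BSA, and it fell by 0.91 on the log2 scale (SE 0.116, limma adjusted p = 0.000832).

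Neutrophils also carry this branch, and 7 of 8 neutrophil markers were in the table, with summed levels of 59.4 to 75.9 FPKM in LPS+PA-BSA and 10.4 to 27.6 FPKM in controls. S100a8, at 57.7, 61.9 and 67.1 FPKM in LPS+PA-BSA and 7.78, 6.11 and 8.3 FPKM in controls, made up most of the sum in LPS+PA-BSA. It was the one of 3 tested markers that was called, as higher, beside 22.2% called higher over all genes tested. Ly6g, a defining neutrophil marker, was at 0 in all 3 LPS+PA-BSA libraries and at 0.136, 0.163 and 0 FPKM in controls. S100a9, Ngp and Ltf were higher in controls 1 and 2 than in any LPS+PA-BSA library, but not in control 3. S100a9 was at 1.39, 2.87 and 7.19 FPKM in LPS+PA-BSA and 11.2, 9.61 and 1.8 FPKM in controls, and Ngp was at 0.0412, 0.0431 and 0.587 FPKM in LPS+PA-BSA and 5.92, 6.03 and 0 FPKM in controls. Ltf was at 0.0456, 0 and 0.278 FPKM in LPS+PA-BSA and 1.27, 1.4 and 0 FPKM in controls. Camp did not follow this pattern, at 0.219, 1.33 and 0.763 FPKM in LPS+PA-BSA and 1.25, 1.17 and 0.288 FPKM in controls. Mpo was at 0.05 FPKM or less in every library. None of the 7 was at 0 in all libraries, and the part of such cells in the Alox5 and Alox5ap values was not tested.

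Of 16 other lipoxygenase and leukotriene genes 7 were tested, of which 3 fell and 0 rose, with a median log2 fold change of -0.22, beside 32.9% lower, 22.2% higher and a median of -0.11 over all genes tested. With so few genes those counts do not set the list apart. The genes that fell were Mgst3, a microsomal glutathione transferase, and Dpep1 and Dpep2, dipeptidases that trim leukotriene D4. Mgst3 was at 4.31, 3.29 and 3.24 FPKM in LPS+PA-BSA, against 16.9, 13.6 and 12.7 FPKM in controls (log2 fold change -1.74, SE 0.140, limma adjusted p = 0.000109). Dpep2 averaged 8.60 ± 0.578 FPKM in LPS+PA-BSA and 19.4 ± 2.15 FPKM in controls (SD, n = 3 each; log2 fold change -1.08), and Dpep1 averaged 0.249 ± 0.113 FPKM in LPS+PA-BSA and 1.65 ± 0.468 FPKM in controls (log2 fold change -1.07, and -2.34 with a pseudocount of 0.1). Dpep1 passed the filter on low values only through the controls. Lta4h, the hydrolase that makes leukotriene B4, was at 5.81 ± 0.426 FPKM in LPS+PA-BSA and 6.92 ± 0.422 FPKM in controls, a log2 fold change of -0.22 (95% interval -0.43 to -0.01, limma adjusted p = 0.0713). It passed the threshold in 3 of 17 alternatives, at most by -0.51 with the GC and length trend removed. Cyp4f18, which inactivates leukotriene B4, was at 2.59, 3.59 and 4.62 FPKM in LPS+PA-BSA, against 3.59, 3.44 and 1.92 FPKM in controls, with overlapping groups (log2 fold change 0.21, limma adjusted p = 0.46). It was called higher in 3 of 17 alternatives, at most by 0.49 with the GC and length trend removed. Ltc4s, the leukotriene C4 synthase, stayed under the filter at 0.146 to 0.274 FPKM in LPS+PA-BSA and 0.329 to 0.874 FPKM in controls.

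**Figure D3:**
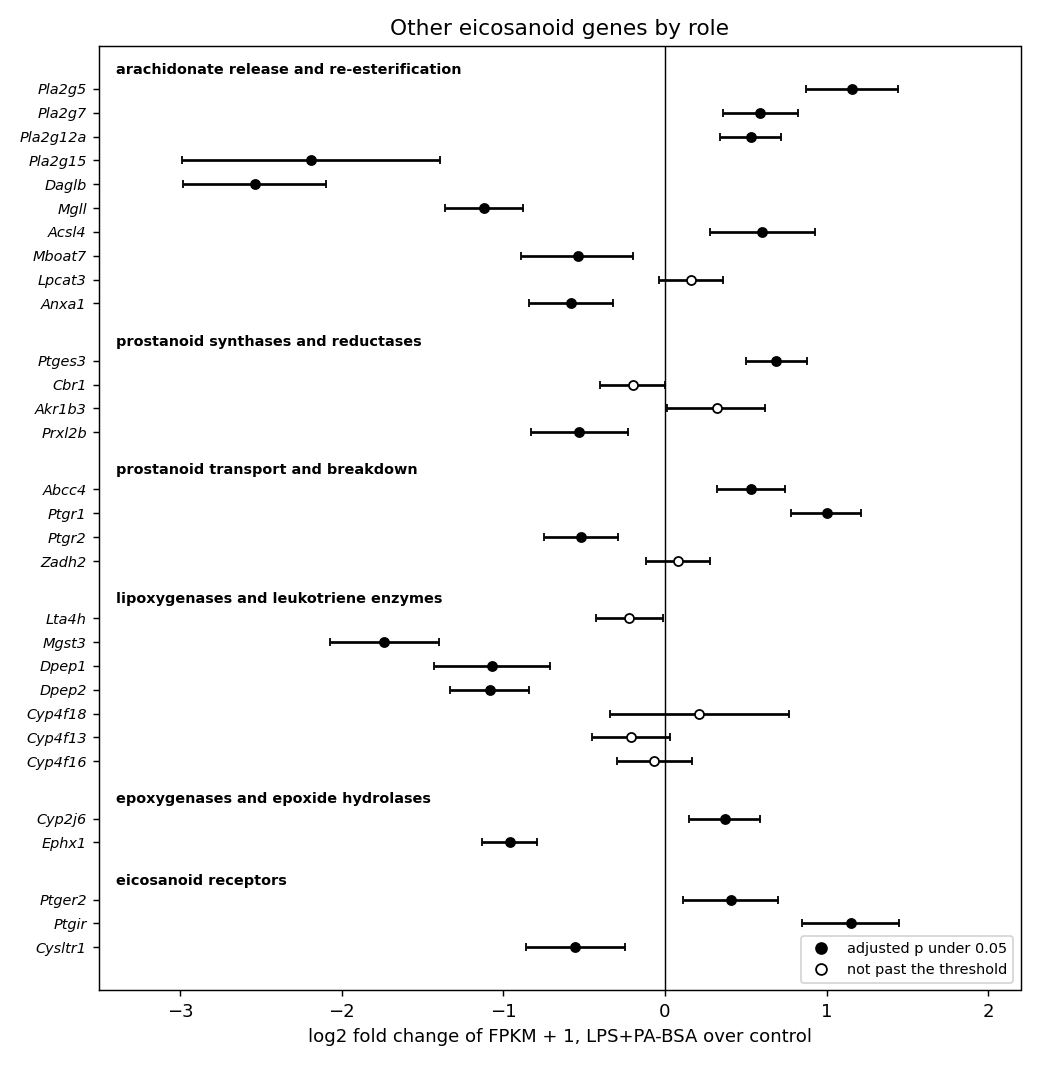
Log2 fold changes of FPKM + 1 (LPS+PA-BSA over control) with 95% intervals from limma for the 30 other eicosanoid genes that passed the filter on low values, grouped by role, with filled points for adjusted p under 0.05. Daglb (-2.54) and Pla2g15 (-2.19) show the largest falls and Pla2g5 (1.16) and Ptgir (1.15) the largest rises.

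Other genes that release arachidonate or put it back into phospholipids went both ways. Of 18 listed genes 10 were tested, of which 4 rose and 5 fell, with a median log2 fold change of -0.19. Over all genes tested 22.2% were called higher and 32.9% lower, with a median of -0.11. Pla2g5, a secreted phospholipase A2, was at 1.84, 1.96 and 2.66 FPKM in LPS+PA-BSA, against 0.492, 0.306 and 0.427 FPKM in controls (log2 fold change 1.16, SE 0.121, limma adjusted p = 0.000339, and 2.15 with a pseudocount of 0.1), and it passed the filter on low values only through LPS+PA-BSA. Pla2g7, which inactivates platelet-activating factor, was abundant at 471 ± 33.8 FPKM in LPS+PA-BSA and 313 ± 23.7 FPKM in controls (SD, n = 3 each; log2 fold change 0.59), and Acsl4, which couples arachidonate to coenzyme A, averaged 39.8 ± 4.1 FPKM in LPS+PA-BSA and 26 ± 4.28 FPKM in controls (0.60). Both calls were lost within LPS+PA-BSA 1, LPS+PA-BSA 2 and control 3 alone (0.50 for Pla2g7 and 0.42 for Acsl4), and both values were smaller with the GC and length trend removed (0.36 and 0.40).

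Other genes of that list fell. Daglb, a diacylglycerol lipase, was at 1.29, 1.52 and 1.69 FPKM in LPS+PA-BSA, against 15.9, 15.6 and 9.91 FPKM in controls (log2 fold change -2.54, SE 0.184, limma adjusted p = 6.86e-05). Mgll, the monoacylglycerol lipase that follows it on the way to arachidonate, averaged 0.530 ± 0.0538 FPKM in LPS+PA-BSA and 2.33 ± 0.332 FPKM in controls (SD, n = 3 each; log2 fold change -1.12, with -1.94 at a pseudocount of 0.1 and -0.74 with the GC and length trend removed), and it passed the filter on low values only through the controls. Pla2g15, the lysosomal phospholipase A2, was at 14.7, 17.5 and 20.8 FPKM in LPS+PA-BSA, against 109, 111 and 47.6 FPKM in controls (log2 fold change -2.19, SE 0.333, limma adjusted p = 0.00186). Control 3, the library with the strongest GC lean, was the lowest control for Pla2g15 and Daglb, as it was for Ptgs1. Anxa1, annexin A1, known as a brake on phospholipase A2, averaged 133 ± 9.23 FPKM in LPS+PA-BSA and 200 ± 23.3 FPKM in controls (log2 fold change -0.58, and -1.0 with the GC and length trend removed). Lpcat3, which puts polyunsaturated chains back into phospholipids, was at 17.8 ± 1.15 FPKM in LPS+PA-BSA and 15.8 ± 0.98 FPKM in controls (log2 fold change 0.16, 95% interval -0.04 to 0.36), and passed the threshold with equal medians in each library (0.33) and with the GC and length trend removed (0.27).

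Of 7 other prostanoid synthases and reductases 4 were tested, and beside Ptges3 the one called was Prxl2b, a prostamide and prostaglandin F synthase, which was lower (log2 fold change -0.53). The Prxl2b call was lost in 3 of 17 alternatives, among them the removal of the GC and length trend (-0.16) and LPS+PA-BSA 1, LPS+PA-BSA 2 and control 3 alone (-0.26). Akr1b3, aldose reductase, which can make prostaglandin F2 alpha, was at 20.2 ± 1.33 FPKM in LPS+PA-BSA and 16.2 ± 2.62 FPKM in controls (SD, n = 3 each; limma adjusted p = 0.0761), and it passed the threshold in 5 of 17 alternatives. Of 5 genes of the epoxygenase branch 2 were tested. Ephx1, microsomal epoxide hydrolase, fell to 41.5, 44.9 and 40.3 FPKM in LPS+PA-BSA, against 84.0, 82.3 and 82.6 FPKM in controls (log2 fold change -0.96, SE 0.0722, limma adjusted p = 8.24e-05). Cyp2j6, an epoxygenase, was called higher at 5 ± 0.54 FPKM in LPS+PA-BSA and 3.63 ± 0.109 FPKM in controls (log2 fold change 0.37). That call was lost in 6 of 17 alternatives, among them those without control 1 (0.37) or control 2 (0.36), with the GC and length trend removed (0.07) and within LPS+PA-BSA 1, LPS+PA-BSA 2 and control 3 alone (0.39). Over all 6 lists, 30 of 64 genes were tested, of which 10 rose and 12 fell, with a median log2 fold change of -0.13, beside 22.2% higher and 32.9% lower over all genes tested. Within LPS+PA-BSA 1, LPS+PA-BSA 2 and control 3 alone, 4 rose and 10 fell. Quantile normalization gave 11 higher and 9 lower, and equal medians 12 and 10.

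The order of levels among the 10 genes differed between groups. In LPS+PA-BSA it ran from Ptgs2 through Alox5ap, Ptges, Pla2g4a, Hpgds, Tbxas1, Ptger4, Ptgs1 and Hpgd to Alox5. Only the ranges of Ptges and Pla2g4a and those of Hpgd and Alox5 overlapped among neighbours in that order. In controls it ran from Alox5ap through Hpgds, Hpgd, Tbxas1, Pla2g4a, Ptges, Alox5, Ptgs1 and Ptgs2 to Ptger4, and each neighbouring pair from Ptges to Ptger4 had overlapping ranges. The place of Ptgs2 was thus 1 of 10 in LPS+PA-BSA and 9 of 10 in controls.

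**Figure D4:**
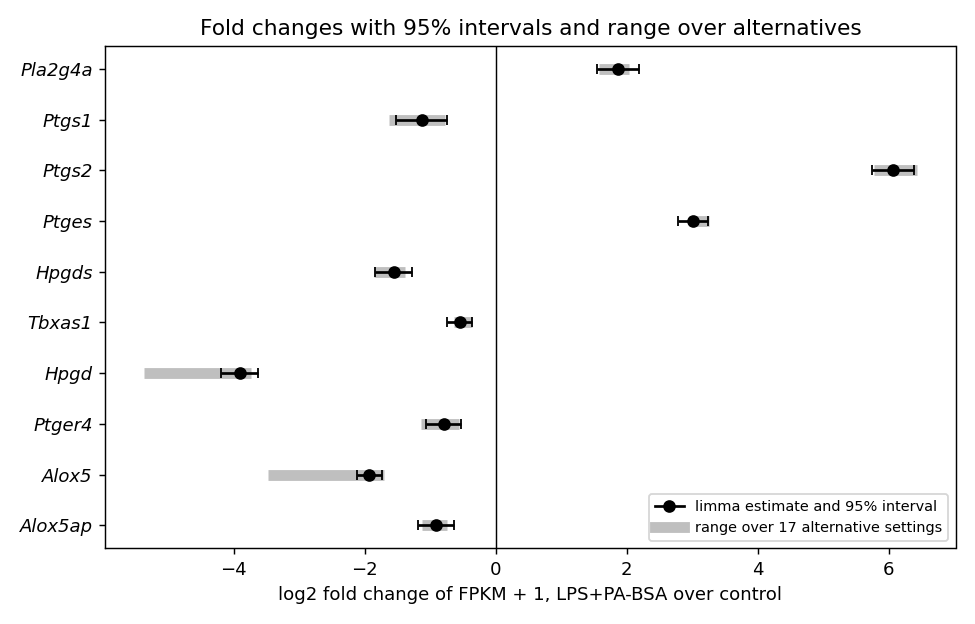
Log2 fold changes of FPKM + 1 (LPS+PA-BSA over control) for the 10 genes, with points and 95% intervals from limma and grey bars for the range over 17 alternative settings. No grey bar crosses 0, and those of Hpgd (to -5.37) and Alox5 (to -3.48) reach far to the left with the smaller pseudocount.

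By the distance between log2(FPKM + 1) values over the 6 libraries, the genes nearest to Ptgs2 were Ms4a4c (distance 0.41), Cxcl10 (0.60) and Il1a (1.02). The nearest to Hpgd were Trav13-4-dv7 (0.43), Slc9a9 (0.70) and Slc46a3 (0.71). With 6 libraries in 2 groups such closeness describes a like level in each group and no more. Slc46a3 was at 0.574, 0.519 and 0.890 FPKM in LPS+PA-BSA and 18.9, 16.4 and 18.0 FPKM in controls, and Ms4a4c was at 311, 318 and 274 FPKM in LPS+PA-BSA and 2.89, 3.05 and 3.53 FPKM in controls. Ms4a4c has close paralogs and Trav13-4-dv7 belongs to a gene family, so their values are uncertain where reads could be split.

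In the authors' deposited table all 10 genes had a q-value under 0.05, the largest being 0.00468 for Tbxas1. The authors' deposited table marked 8 of them as significant, and left out Alox5ap and Tbxas1. Those had the smallest deposited log2 fold changes of the 10 in size, at -0.918 for Alox5ap and -0.592 for Tbxas1.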

How the data were processed

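RNA was sequenced from 6 libraries of poly(A) RNA, read as pairs from strand-marked libraries, per the labels' protocols. The authors deposited FPKM values for 29957 genes, 1 column per library, with no column left unassigned and no 2 libraries identical. The authors deposited with them, for each gene, a fold change with its log2 value. A p-value and a q-value were also deposited. Their fold change equalled the ratio of mean FPKM, within a tolerance of 0.001, in all 23889 rows with both means above 0. The test behind their p-values, the annotation and the strand setting are not given in the sources used here. The submitters' processing notes list, with no role or order, the build mm10 and the tools edgeR, DESeq2, StringTie 2.1.6, HISAT2 2.2.1 and cutadapt 1.9.

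The files hold no counts, so limma 3.58.1 (R 4.3.3) with a variance trend was fitted to log2(FPKM + 1) of 11364 genes, those that reached 1 FPKM in 3 or more of the 6 libraries. Tests were two-sided, and a call is a Benjamini-Hochberg adjusted p under 0.05 over all of them. The fit was checked on simulated data. Depth per library, between 13910000 and 21180000 fragments, was read from the most common low step of FPKM in genes with 1 transcript (tolerance 0.5%). Fragment numbers use the longest listed transcript and are approximate, and cover counting error only, since PCR copies are not independent molecules. Of 55 symbols on several rows, each row was kept as a gene of its own, and for Dpep2 the row of higher mean is given. Of the gene IDs, 29871 matched GENCODE M21 (mm10), which gave coordinates, transcript length and GC content, and RefSeq promoters (GRCm38.p6) were found for 9 of the 10 genes. Python 3.11.15 with pandas 2.3.3, numpy 2.4.6 and matplotlib 3.10.9 was used for the rest.

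The 10 genes, the 6 lists of other eicosanoid genes (64 genes) and the marker lists were chosen with earlier results of these data known. Of the lists, genes were named where a group mean reached 10 FPKM or where the test was passed with a log2 fold change of 1 or more in size, and for Ptgs2 and Hpgd the 3 nearest genes. Ptges2, Ptger2, Ptgr2, Prxl2b, Cyp2j6, Cysltr1, Lta4h, Ltc4s, Cyp4f18, Ptgs2os, the overlapping genes and those of the last section were named after their values were seen. Dendritic cell markers, 4 genes, summed to 0.373 to 0.564 FPKM in LPS+PA-BSA and 0.315 to 0.424 FPKM in controls. Alternatives were a pseudocount of 0.1, no filter, no variance trend, quantile normalization, equal medians, removal of each library's GC and length trend (11356 genes), a replicate block, a term for 2 sets of libraries, each set alone and each library left out. The sets, known from earlier results of these data, were LPS+PA-BSA 3, control 1 and control 2, and LPS+PA-BSA 1, LPS+PA-BSA 2 and control 3. A fit without LPS+PA-BSA 1 and control 3 was added after seeing the data.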

Additional observations from a re-analysis of the deposited data

How the results depend on the processing

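Over 170 values, 10 genes under 17 alternatives each, 168 kept their direction and their side of the threshold, none reversed and 2 lost their call. Both losses, Tbxas1 (-0.53) and Ptger4 (-0.56), came within LPS+PA-BSA 1, LPS+PA-BSA 2 and control 3 alone, a fit of fewer samples that takes the lone control to vary like the other group. The cause was not tested. In that fit 4 genes of the wider lists were higher, against 10 with all libraries, and over all genes 1197 were higher and 1797 lower. Without LPS+PA-BSA 1 and control 3, an alternative chosen after seeing the data, 3 of the 10 genes were higher and 7 lower, as with all libraries. With the replicate block 3 and 7 of the 10 genes, 8 and 11 of the wider lists and 1918 and 2820 of all genes were higher and lower. Same-numbered libraries did not deviate together (correlations of -0.472, 0.091 and -0.589 for numbers 1, 2 and 3), so the numbers were not taken as pairs. LPS+PA-BSA 1 deviated most like control 3 (0.603). Depth limits the low values most, since Hpgd and Alox5 rested on 7 to 19 fragments per LPS+PA-BSA library.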

Other observations

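Of the wider lists, 32 genes stayed below the filter on low values. In the fit without a filter, Alox12, which encodes 12-lipoxygenase, was at 0.255, 0.313 and 0.180 FPKM in LPS+PA-BSA and 0.0254, 0 and 0.0219 FPKM in controls, about 9 to 14 fragments against 0 to 2 (limma adjusted p = 0.00614). Dagla, a diacylglycerol lipase like Daglb, was at 0.175, 0.403 and 0.636 FPKM in LPS+PA-BSA and 2.88, 3.13 and 0.866 FPKM in controls (limma adjusted p = 0.0625). Pla2g6, a calcium-independent phospholipase A2, was at 0.367, 0.486 and 0.847 FPKM in LPS+PA-BSA and 2.56, 2.27 and 0.948 FPKM in controls (limma adjusted p = 0.0704). In both, control 3 lay near the treated libraries and LPS+PA-BSA 3 was the highest of its group.

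Ptgfr, the prostaglandin F receptor, was at 0.0397, 0.0455 and 0.0505 FPKM in LPS+PA-BSA and 0.409, 0.325 and 0.425 FPKM in controls. Ggt5, which converts leukotriene C4 to D4, was at 0.0215, 0.0739 and 0.0593 FPKM in LPS+PA-BSA and 0.575, 0.897 and 0.393 FPKM in controls. Tbxa2r, the thromboxane receptor, was listed at 0 in all libraries but control 1 (0.00886 FPKM). These genes were named after their values were seen.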
